A study of Mus musculus with 2 samples.

Results

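Among liver leukocytes that carried both T cell receptor and Cxcr6 transcripts, a small set of cells held many transcripts of interferon-stimulated genes (ISGs). These cells, called ISG-high cells here, numbered 13 in the library from antibiotic-treated mice and 72 in the library from vehicle-treated mice, 85 of 7803 Trac+ Cxcr6+ cells and of 16052 cells in all. A cell was a barcode with at least 1500 unique molecular identifiers (UMIs, each standing for 1 captured transcript) and under 10% of its UMIs from mitochondrial genes. ISG-high cells had at least 1 UMI of Trac, the constant segment of the T cell receptor α chain, at least 1 UMI of Cxcr6, a chemokine receptor of liver-resident lymphocytes, and at least 8 UMIs of Ifit1, Ifit3, Isg15, Rsad2 and Usp18 added together. They had no UMI of Cd79a, a B cell receptor subunit, none of Trav11, the α chain variable segment of invariant NKT cells, and under 2 UMIs of the activation genes Icam1 and Tnfrsf9 added together. All other Trac+ Cxcr6+ cells were the reference cells, 4203 in the antibiotic library and 3515 in the vehicle library, and by this definition they include cells with Cd79a, Trav11 or the activation genes. The 5 interferon genes of the rule chose the cells, so their values in these cells are a description and nothing rests on them.

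CD45+ leukocytes were sorted by flow cytometry from livers of 6-week-old female mice. One library came from mice whose drinking water held ampicillin and metronidazole at 1 mg/mL each and vancomycin and neomycin at 0.5 mg/mL each for 1 week, and the other from mice given vehicle. The sources used here do not give the number of mice behind either library, and beyond the CD45+ gate nothing selected T cells. With 1 library per condition there was no replicate check: no test between conditions or between cells was made, and effects of the mice, the capture or the library cannot be told apart from the treatment.

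Depth and the other limits of the libraries bear on a class cut by a count. The antibiotic library held 29811401 UMIs and the vehicle library 41474311. ISG-high cells had a median of 3951 UMIs in the antibiotic library (single cells from 2450 up to 5778) and 4177.5 UMIs in the vehicle library (single cells from 2514 up to 10283), against medians of 3646 and 4251 UMIs in the reference cells of the antibiotic and the vehicle library. Their median mitochondrial share was 1.86% and 1.64%. No ISG-high barcode was shared between the libraries, while 93 barcodes were called as cells in both. Levels are given as UMIs summed over a set of cells, per 1000000 UMIs of that set (CPM). Ranges in parentheses after a level, share or ratio are, unless single cells are named, 95% intervals, Clopper-Pearson for shares and exact for Poisson counts and their ratios, and cover counting error only. In the ISG-high cells 1 UMI was worth 19.6 CPM in the antibiotic library but 2.90 CPM in the vehicle library, so single genes were measured far more coarsely in the 13 antibiotic cells.

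Type I interferons signal through the receptor chains encoded by Ifnar1 and Ifnar2 and the kinases Jak1 and Tyk2, which activate a transcription factor complex containing IRF9 that binds interferon-stimulated response elements in ISG promoters. Interferon γ, a main product of NKT cells, signals through a separate receptor, and the targets of both pathways overlap. ISG products bind viral RNA (IFIT proteins), modify other proteins (ISG15), hold budding virions at the membrane (BST2) or guard vacuoles (immunity-related GTPases), and USP18 removes ISG15 and dampens receptor signaling.

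The response element contains GAAA, any 2 bases and GAAA again. Windows of 250 bases before the RefSeq start of each gene (build GRCm38.p6) were searched for this pattern on both strands. The 200 bases before the start are shown for the 4 rule genes with an entry and for a membrane-bound and a GTPase gene that were high in ISG-high cells of both libraries. They are written 5′ to 3′ along the strand of the gene, and capitals mark the GAAA (or TTTC where the element lies on the other strand) of each match.

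Isg15 (chr4:156200819-156201018, minus strand): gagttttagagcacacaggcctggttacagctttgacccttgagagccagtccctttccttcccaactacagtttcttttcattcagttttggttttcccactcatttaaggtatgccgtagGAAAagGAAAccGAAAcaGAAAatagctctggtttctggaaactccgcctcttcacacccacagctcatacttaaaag
Ifit1 (chr19:34640689-34640888, plus strand): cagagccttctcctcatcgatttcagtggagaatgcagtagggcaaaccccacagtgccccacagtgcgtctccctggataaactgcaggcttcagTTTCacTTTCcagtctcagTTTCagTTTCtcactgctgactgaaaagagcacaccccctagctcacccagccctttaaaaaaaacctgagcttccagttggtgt
Ifit3 (chr19:34583329-34583528, plus strand): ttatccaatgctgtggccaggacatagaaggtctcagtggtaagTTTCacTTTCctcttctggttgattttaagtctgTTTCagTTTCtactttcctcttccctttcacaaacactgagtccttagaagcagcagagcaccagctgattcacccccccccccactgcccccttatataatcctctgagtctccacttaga
Rsad2 (chr12:26456453-26456652, minus strand): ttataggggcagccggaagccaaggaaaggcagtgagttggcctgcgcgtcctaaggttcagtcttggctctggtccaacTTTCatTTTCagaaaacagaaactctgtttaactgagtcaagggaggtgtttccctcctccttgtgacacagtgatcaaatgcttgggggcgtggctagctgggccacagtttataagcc
Bst2 (chr8:71537473-71537672, minus strand): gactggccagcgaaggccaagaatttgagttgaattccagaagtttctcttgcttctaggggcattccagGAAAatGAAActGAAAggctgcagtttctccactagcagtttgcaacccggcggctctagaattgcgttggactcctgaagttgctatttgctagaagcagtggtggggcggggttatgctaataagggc
Irgm1 (chr11:48871421-48871620, minus strand): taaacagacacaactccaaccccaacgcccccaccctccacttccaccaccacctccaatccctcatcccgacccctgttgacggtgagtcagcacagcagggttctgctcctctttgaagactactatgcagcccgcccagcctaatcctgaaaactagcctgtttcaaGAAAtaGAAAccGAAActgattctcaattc

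The Isg15 window held 3 overlapping matches that began 78, 72 and 66 bases before the start. Ifit1 held 2, beginning 104 and 85 bases before the start, Ifit3 held 2, at 156 and 122, and Rsad2 held 1, at 120. Bst2 held 2 overlapping matches at 130 and 124, and Irgm1 2 at 30 and 24. Of the 111 genes on the 5 interferon lists described below, 80 had an entry and 31 of these (38.8%, 28.1 to 50.3) held a match, compared with 828 of all 27025 promoters (3.06%). The GTPase list had the highest share, 10 of 12 (83.3%, 51.6 to 97.9), the sensors had 5 of 10 and the ubiquitin, PARP and Schlafen list 7 of 30. The windows of Ifit2, Irf7, Isg20, Cmpk2 and Oasl1 held no match of these letters. Among the interferon genes that were at least 2-fold higher in ISG-high cells of both libraries, 21 of 43 (48.8%, 33.3 to 64.5) held a match, and 3 of 17 (17.6%, 3.80 to 43.4) of the other interferon genes measured did, with intervals that overlap. A match is a run of letters and not a shown binding site.

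ISG-high cells differed in how many rule UMIs they held. The 13 antibiotic cells held 30, 18, 16, 13, 13, 11, 11, 10, 10, 10, 9, 9 and 8 rule UMIs, and the 72 vehicle cells held 8 to 60 with a median of 17. Only 1 antibiotic cell but 31 vehicle cells reached 20. The 5 highest antibiotic cells held 53.6% of the rule UMIs of all 13. Per cell, the rule genes had medians of 2938 CPM in antibiotic and 3927 CPM in vehicle ISG-high cells. The highest antibiotic cell held 19 UMIs of Isg15, 6 of Ifit3, 3 of Ifit1 and 2 of Rsad2 among 3450 UMIs, and the highest vehicle cell held 31 of Isg15, 13 of Ifit3, 12 of Ifit1, 2 of Rsad2 and 2 of Usp18 among 4571 UMIs. Neither was the deepest ISG-high cell of its library.

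Isg15, which encodes the ubiquitin-like modifier, supplied 48.8% of the rule UMIs in antibiotic ISG-high cells and 47.3% in vehicle ISG-high cells. It was found in all 13 and all 72. Ifit1, which binds foreign RNA caps, was found in 13 of 13 antibiotic and 67 of 72 vehicle cells, and its neighbor Ifit3 in 11 of 13 and 58 of 72. The rarer genes were seen in fewer cells: Usp18, the ISG15 protease, in 5 of 13 and 42 of 72, and Rsad2, which encodes the antiviral enzyme viperin, in 2 of 13 and 31 of 72. No antibiotic cell and 24 vehicle cells held all 5 rule genes.

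Summed over cells, Isg15 was at 1610 CPM in ISG-high cells against 35.0 CPM in reference cells of the antibiotic library, and at 2103 against 134.5 CPM in the vehicle library. Ifit1 was at 628 against 14.6 CPM in the antibiotic library and at 1071 against 33.4 CPM in the vehicle library. Ifit3 was at 825 against 8.70 CPM and at 746 against 25.8 CPM, in the same order. The near-identical neighbor Ifit3b may share reads with Ifit3, so how these UMIs split between both genes is uncertain. All 5 rule genes together were at 3300 CPM in antibiotic and 4448 CPM in vehicle ISG-high cells. Reference cells held 62.9 and 209.5 CPM, and barcodes of 1 to 100 UMIs, which hold free RNA and no cell, held 57.8 CPM in the antibiotic library and 150.4 CPM in the vehicle library. The reference cells thus lay little above the free RNA of their own library, and the ISG-high cells far above it. The ISG-high cells held 13.6% of the rule UMIs of all Trac+ Cxcr6+ cells in the antibiotic library and 30.3% in the vehicle library.

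The genes sit apart in the genome (GRCm38, GENCODE vM21). Ifit2 (34550694 to 34576419), Ifit3 (34583531 to 34588731), Ifit1bl1 (34592891 to 34601956), Ifit3b (34607970 to 34613401) and Ifit1 (34640871 to 34650009) form a cluster on chromosome 19. Isg15 lies on chromosome 4 (156199424 to 156200818), Usp18 on chromosome 6 (121245906 to 121270917), and Rsad2 on chromosome 12 (26442746 to 26456452) beside Cmpk2 (26469204 to 26479837).

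**Figure D1:**
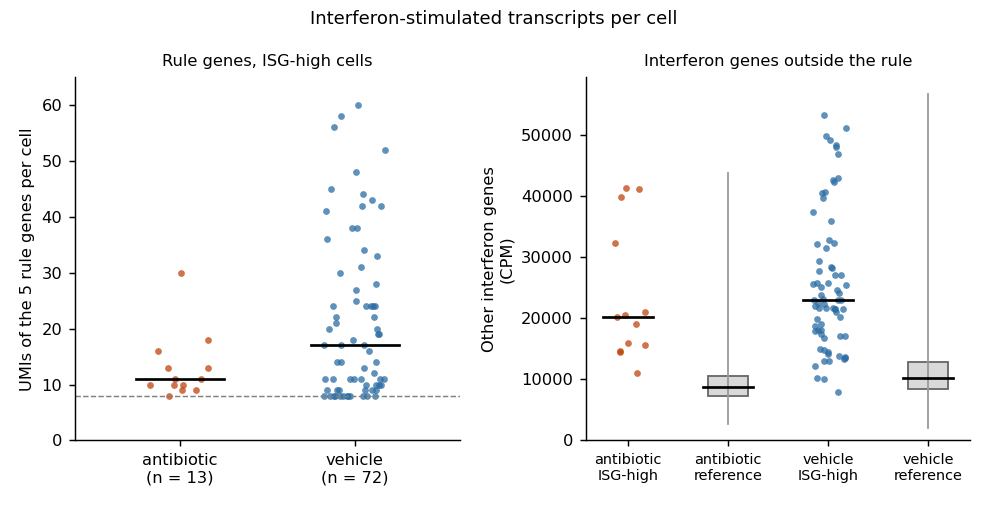
Rule UMIs in each ISG-high cell (left, number of UMIs, dashed line at the threshold of 8) and the other 105 interferon genes in CPM (right), with each ISG-high cell as a point and the median as a line, antibiotic left of vehicle; reference cells are drawn as a box (quartiles) with a line over their range. The antibiotic cells reach 30 and the vehicle cells 60 rule UMIs, and the medians of the other interferon genes, 20249 and 22978 CPM, lie above those of the reference cells, 8782 and 10253.

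Interferon genes that the rule did not use were also high in ISG-high cells. The 5 interferon lists (antiviral effectors, RNA and DNA sensors, ubiquitin, PARP and Schlafen family genes, transcription factors, and interferon-inducible GTPases) hold 111 genes besides the 5 of the rule, and 105 of these were in the files. They took a median of 20249 CPM in the 13 antibiotic ISG-high cells, with single cells between 11038 and 41308, against a median of 8782 in antibiotic reference cells. In the 72 vehicle ISG-high cells the median was 22978 CPM, with single cells between 8000 and 53380, against 10253 in vehicle reference cells. The groups overlapped, since single reference cells reached 43789 CPM in the antibiotic library and 56780 in the vehicle library. The number of these genes seen in a cell, after every cell was thinned to 1500 UMIs, had a median of 17 in antibiotic and 21 in vehicle ISG-high cells, against 8 and 10 in reference cells, and 32 and 43 against 15 and 20 before thinning.

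The level of these genes was followed over the number of rule UMIs, below the threshold as well as past it. Among cells that met the other parts of the rule, antibiotic cells with 0 rule UMIs had 8750 CPM of the other interferon genes (2620 cells), those with 1 had 9455 CPM (370 cells) and those with 2 or 3 had 11327 CPM (87 cells). Above that the numbers were small, with 15463 CPM at 4 or 5 (12 cells), 11400 CPM at 6 or 7 (6 cells), 16583 CPM at 8 to 11 (8 cells), 33776 CPM at 12 to 19 (4 cells) and 41159 CPM in the 1 cell above. The antibiotic series dips at 6 or 7 rule UMIs (10471 to 12389), below the ISG-high cells with 8 to 11 (15226 to 18029), and the 6 cells there were also deep (median 7078.5 UMIs). Vehicle cells had 9908 CPM at 0 rule UMIs (1409 cells), 10943 at 1 (547 cells), 12446 at 2 or 3 (236 cells), 14419 at 4 or 5 (81 cells) and 20327 at 6 or 7 (26 cells). Vehicle ISG-high cells then had 18123 CPM at 8 to 11 (29 cells), 22673 at 12 to 19 (12 cells) and 32006 at 20 or more (31 cells). The vehicle series dips at the threshold itself, with 17407 to 18861 CPM as the interval at 8 to 11 rule UMIs and 19486 to 21194 at 6 or 7. Near the threshold lay 4 antibiotic cells with 7 rule UMIs, with a median of 83 UMIs of the other interferon genes, and 1 with 8, with 77 UMIs. In the vehicle library 16 cells had 7 rule UMIs, with a median of 68.5 UMIs of the other interferon genes, and 12 had 8, with 89.5. These UMIs are not scaled by depth. The threshold marks off a range of a count and not a cell type.

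**Figure D2:**
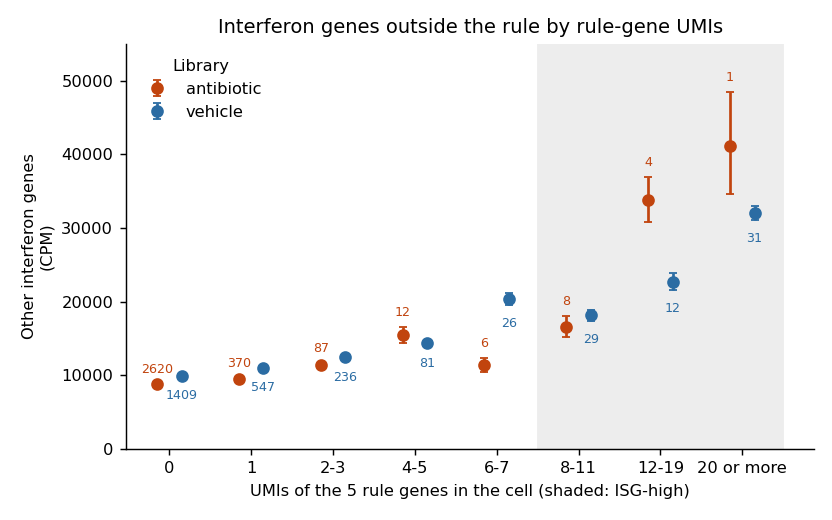
Summed level of the other interferon genes (CPM, exact 95% Poisson bars) by the number of rule UMIs per cell, among cells that meet the other parts of the rule, antibiotic and vehicle, with the number of cells printed at each point and ISG-high bins shaded. Vehicle cells lie at 9908 CPM with 0 rule UMIs and at 32006 CPM with 20 or more; antibiotic cells lie at 8750 and 41159 CPM at the same ends, the last being 1 cell.

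Genes were compared one by one if they reached 10 CPM over all Trac+ Cxcr6+ cells of both libraries, which left 6801 genes, 77 of them on the interferon lists. In the antibiotic library the median log2 ratio of ISG-high over reference cells was 1.97 over the 77 interferon genes, beside 0.17 over all genes. With the 3 interferon genes at 0 UMIs in antibiotic ISG-high cells placed at 3 UMIs, the list median was 2.01. Of the 77, 59 were at least 2-fold higher and 2 at least 2-fold lower, where 20.3% of all genes were 2-fold higher and 11.4% 2-fold lower, a wide spread that comes with 13 cells. Counting only genes whose interval lay above 1, 44 of the 77 were higher, beside 3.07% of all genes, and none had an interval below 1, beside 0.794% of all genes. In the vehicle library the median was 1.56, beside -0.02 over all genes. There 58 of the 77 were at least 2-fold higher and none 2-fold lower, where 2.9% of all genes were 2-fold higher and 5.31% lower, and 69 had an interval above 1 and none below, beside 4.25% and 3.88% of all genes. In both libraries 53 interferon genes were at least 2-fold higher, and 132 of all genes (1.94%) were, 3 of them rule genes. These ratios come from cells chosen by related genes and describe the cells.

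Antiviral effectors had median log2 ratios of 2.32 in the antibiotic and 1.72 in the vehicle library. At least 2-fold higher were 13 of 16 in each, beside 20.3% and 2.9% of all genes. Intervals lay above 1 for 11 and 13 of the 16, beside 3.07% and 4.25% of all genes. Ifit2, the family member beside Ifit3, was at 157 CPM in ISG-high cells against 9.64 CPM in reference cells of the antibiotic library (16.3-fold, 6.92 to 32.9), and at 95.7 against 10.3 CPM in the vehicle library (9.33-fold, 6.22 to 13.6). Bst2, encoding tetherin, was at 609 against 110 CPM (5.52-fold, 3.74 to 7.86) and at 740 against 184 CPM (4.02-fold, 3.52 to 4.56), again antibiotic library first. Zbp1, a sensor of Z-form nucleic acid, was 7.21-fold (4.55 to 10.9) and 4.04-fold (3.40 to 4.76) higher in ISG-high cells of the antibiotic and the vehicle library. All of these lay above their reference cells in each library with intervals that exclude a ratio of 1. Ifi27l2a was among the most abundant, with 2102 against 250 CPM in the antibiotic library and 2106 against 925 CPM in the vehicle library, but 53 of the 107 antibiotic UMIs came from 1 cell. Ifitm3, which blocks viral entry, had 4 UMIs in antibiotic ISG-high cells, all in that library's cell with the most rule UMIs, and 50 UMIs in vehicle ISG-high cells (3.84-fold, 2.82 to 5.13). Some classical effectors were too rare for the 10 CPM limit, such as Mx1 with 3 and 45 UMIs, Oasl1 with 5 and 32 UMIs and Cmpk2 with 4 and 41 UMIs in antibiotic and vehicle ISG-high cells.

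Among the sensors, 5 of 6 were at least 2-fold higher in each library, beside 20.3% and 2.9% of all genes. Intervals lay above 1 for 4 and 5 of the 6, beside 3.07% and 4.25% of all genes. Ddx58, which encodes the RNA sensor RIG-I, was at 275 against 34.5 CPM in the antibiotic library (7.97-fold, 4.33 to 13.5) and at 128 against 47.2 CPM in the vehicle library (2.70-fold, 1.95 to 3.66), with UMIs in 10 of 13 and 32 of 72 ISG-high cells. Ifi203, of a family of DNA sensors, was 3.57-fold (2.33 to 5.25) and 2.43-fold (2.05 to 2.87) higher. Tmem173, which encodes STING, was the exception, at 19.6 against 37.6 CPM in the antibiotic library (ratio 0.523, 0.0132 to 2.92) and 52.2 against 50.1 CPM in the vehicle library (ratio 1.04, 0.615 to 1.66).

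The list of ubiquitin-like, PARP and Schlafen family genes had medians of 1.51 and 1.48 on the log2 scale. At least 2-fold higher were 23 of 34 in each library, beside 20.3% and 2.9% of all genes. In the antibiotic library 2 were at least 2-fold lower, beside 11.4% of all genes, and in the vehicle library none. Intervals lay above 1 for 19 and 32 of the 34, beside 3.07% and 4.25% of all genes. Rtp4, a receptor-transporting protein, was at 511 against 39.6 CPM in the antibiotic library (12.9-fold, 8.35 to 19) and at 514 against 105 CPM in the vehicle library (4.89-fold, 4.17 to 5.71). Its ISG-high level was thus nearly equal in the libraries while its reference level was not. Slfn5 was 10.8-fold (4.61 to 21.6) and 11.6-fold (8.17 to 16.2) higher, and Herc6, the mouse ligase for ISG15, 8.71-fold (3.95 to 16.7) and 5.62-fold (4.18 to 7.42). Ly6e was abundant in every cell set and differed little, with 2357 against 2195 CPM in the antibiotic library (1.07-fold, 0.890 to 1.28) and 2396 against 1842 CPM in the vehicle library (1.30-fold, 1.21 to 1.39). Uba7, the ISG15-activating enzyme, had no UMI in antibiotic ISG-high cells, where 3 UMIs would be 58.9 CPM, and 21 UMIs in vehicle ISG-high cells (1.96-fold, 1.2 to 3.03).

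Transcription factors of the pathway had medians of 1.34 and 1.12. At least 2-fold higher were 6 of 9 in each library, beside 20.3% and 2.9% of all genes. Intervals lay above 1 for 4 and 8 of the 9, beside 3.07% and 4.25% of all genes. Irf7, the interferon-induced regulator of interferon genes, was at 255 against 38.9 CPM in the antibiotic library (6.56-fold, 3.47 to 11.3) and at 319 against 57.5 CPM in the vehicle library (5.55-fold, 4.51 to 6.77). Irf9 was 3.15-fold (1.15 to 6.90) and 2.68-fold (2.04 to 3.47) higher. By contrast Irf3, which acts before interferon is made and is not itself an ISG, had ratios of 0.795 (0.0961 to 2.88) and 1.34 (0.853 to 2.0). Irf8 was high in the vehicle library only through cells with markers of other cells, as given below.

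The GTPase list, which also holds Cxcl10 and Cd274 and is known foremost as a response to interferon γ, had medians of 2.23 and 1.70. At least 2-fold higher were 12 of 12 genes in the antibiotic library and 11 of 12 in the vehicle library. Of all genes, 20.3% and 2.9% were. Intervals lay above 1 for 6 and 11 of the 12, beside 3.07% and 4.25% of all genes. Irgm1 was at 275 against 41.1 CPM (6.70-fold, 3.64 to 11.3) in the antibiotic library and at 252 against 62.2 CPM (4.06-fold, 3.22 to 5.05) in the vehicle library. Gbp2, a guanylate-binding protein, was 6.41-fold (3.18 to 11.6) and 4.22-fold (3.31 to 5.31) higher, and Igtp 4.59-fold (2.90 to 6.91) and 3.27-fold (2.78 to 3.83). Genes known from type I and from type II interferon responses were thus both high in these cells. Cxcl10, a chemokine for T cells, was at 550 against 8.58 CPM in the antibiotic library and 49.3 against 24.1 CPM in the vehicle library, but 26 of its 28 antibiotic UMIs were in 1 cell.

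**Figure D3:**
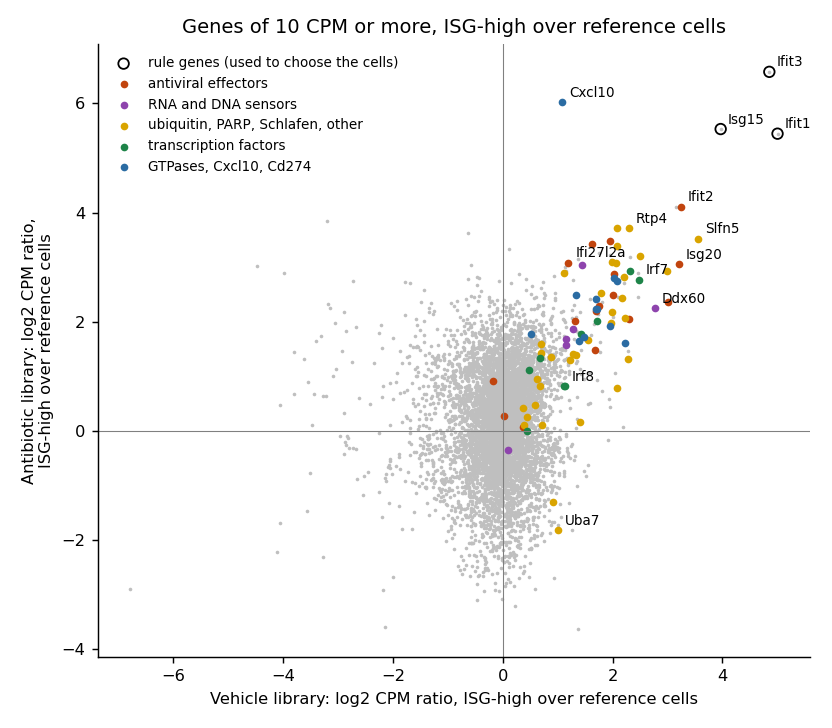
Log2 ratio of CPM in ISG-high over reference cells for 6801 genes, vehicle library on the x axis and antibiotic library on the y axis, with all genes in grey, the 5 interferon lists coloured and the rule genes as open circles. Interferon genes sit to the upper right, with medians of 1.97 (antibiotic) and 1.56 (vehicle), while the grey cloud is centred near 0 and is wider for the 13 antibiotic cells.

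MHC class I genes, which present peptides and are raised by interferons of each type, were shifted less. The 19 genes had medians of 0.64 in the antibiotic and 0.24 in the vehicle library. Intervals lay above 1 for 10 and 13 of them, beside 3.07% and 4.25% of all genes. B2m, the light chain, was at 5833 against 4825 CPM in the antibiotic library (1.21-fold, 1.08 to 1.35) and at 8008 against 6908 CPM in the vehicle library (1.16-fold, 1.12 to 1.2). The peptide loading gene Tapbp was 2.38-fold (1.49 to 3.60) and 1.95-fold (1.65 to 2.30) higher, and the immunoproteasome subunit Psmb10 2.20-fold (1.39 to 3.30) and 1.87-fold (1.61 to 2.17). Erap1, which trims peptides, had ratios of 2.0 (0.241 to 7.28) and 0.478 (0.130 to 1.23), on few UMIs.

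The receptors and kinases upstream of these genes were not high as a group, with medians of 0.10 and -0.28 over 13 genes. With the 2 genes at 0 UMIs placed at 3 UMIs the antibiotic median was 0.75. At least 2-fold higher were 3 of 13 and 1 of 13 (antibiotic and vehicle), beside 20.3% and 2.9% of all genes. At least 2-fold lower were 3 and 1, beside 11.4% and 5.31%. Intervals lay above 1 for 2 and 2, beside 3.07% and 4.25%, and below 1 for 1 and 3, beside 0.794% and 3.88%. Socs1, a feedback inhibitor of JAK kinases that is itself induced by interferon, was the only member at least 2-fold higher in both libraries. It was at 216 against 66.8 CPM (3.23-fold, 1.61 to 5.81) in the antibiotic library and 235 against 77.4 CPM (3.04-fold, 2.4 to 3.8) in the vehicle library. Ifnar1 had ratios of 0.858 (0.104 to 3.11) and 1.06 (0.623 to 1.68). Ifngr1, the interferon γ receptor chain, was at 137.5 against 384 CPM in the antibiotic library (ratio 0.358, 0.144 to 0.739) and 232 against 287 CPM in the vehicle library (ratio 0.809, 0.640 to 1.01). No source of type I or III interferon was seen: the 18 listed genes had 0 UMIs in all called cells of the antibiotic library and 1 UMI in the vehicle library, which limits transcripts captured at this depth and not interferon made. Ifng had 5 and 39 UMIs in ISG-high cells, 98.2 against 35.3 CPM in the antibiotic library (2.79-fold, 0.901 to 6.54) and 113 against 84.2 CPM in the vehicle library (1.34-fold, 0.951 to 1.85), and both intervals include 1.

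The label of these cells as NKT-like was checked against genes outside the rule. Cd3g, a T cell receptor subunit, was found in all 13 and all 72 ISG-high cells, and Cd3d was at 982 against 1049 CPM in the antibiotic library and 1364 against 1352 CPM in the vehicle library. Klrb1c, which encodes NK1.1, had a UMI in 10 of 13 antibiotic and 45 of 72 vehicle ISG-high cells (76.9% and 62.5%), against 81.8% and 62.4% of reference cells. B cells, which should lack it, held a UMI of it in 7.63% and 7.28%, at median depths of 2142.5 and 2548 UMIs. Zbtb16, which encodes PLZF, the regulator of NKT cell development, had a UMI in 2 of 13 and 12 of 72 ISG-high cells (15.4% and 16.7%), against 16.5% and 20.2% of reference cells and 0.616% and 0.532% of B cells. After thinning to 1500 UMIs the shares with Klrb1c were 46.2% and 37.5% in antibiotic and vehicle ISG-high cells, 56.4% and 35.1% in reference cells and 5.78% and 4.82% in B cells, and those with Zbtb16 were 7.69% and 8.33%, 6.90% and 7.68%, and 0.462% and 0.199%. ISG-high and reference cells thus differed in these genes by less than their intervals. Both lay above the B cells, except that thinned Zbtb16 in antibiotic ISG-high cells (0.195 to 36.03) overlapped the B cell interval. T cells without Cxcr6 held Klrb1c in 37.6% and 15.98% and Zbtb16 in 5.46% and 4.11% (antibiotic and vehicle). After thinning their Klrb1c shares were 24.5% and 10.3%. Vehicle ISG-high intervals lay above those of these T cells, but antibiotic ISG-high intervals overlapped them for Zbtb16 and for thinned Klrb1c. Since Trav11 is 0 by the rule and Cxcr6 also marks resident conventional T cells, the invariant receptor was not shown. Cd4 without Cd8 was seen in 3 of 13 antibiotic and 19 of 72 vehicle ISG-high cells (26.4%, 16.7 to 38.1), against 13.0% and 19.1% of reference cells, and neither coreceptor in 8 of 13 and 48 of 72. In the vehicle library 4.25% of Cd4-only cells within the other parts of the rule (19 of 447, 2.58 to 6.56) and 2.87% of cells with neither coreceptor (48 of 1670) were ISG-high, which does not separate them.

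Identity genes stayed near the reference level, with medians of 0.17 and 0.01 over 22 genes, and so did effector genes (-0.06 and -0.06 over 14 genes). Cd69, an early activation antigen that type I interferon also induces, was 2.22-fold (1.01 to 4.23) higher in the antibiotic and 1.88-fold (1.47 to 2.39) higher in the vehicle library. Ccl5, the chemokine that the study follows, was at 4596 against 3983 CPM in the antibiotic library (1.15-fold, 1.01 to 1.31) and at 4395 against 4049 CPM in the vehicle library (1.09-fold, 1.03 to 1.14). Bcl2, a survival gene, was at 216 against 557 CPM (ratio 0.388, 0.194 to 0.694) and at 325 against 382 CPM (ratio 0.851, 0.700 to 1.03). Cxcr3, the receptor for CXCL10, was at 118 against 370 CPM (ratio 0.318, 0.117 to 0.693) and at 334 against 431 CPM (ratio 0.774, 0.638 to 0.931), lower than in reference cells of each library. Il7r (ratios 0.763, 0.406 to 1.31, and 1.12, 0.831 to 1.49) and Cd48 (1.26, 0.652 to 2.21, and 0.925, 0.758 to 1.12) had intervals that include 1, and Il10 had no UMI in any ISG-high cell.

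Outside the lists, the genes highest over the reference cells in both libraries included further interferon-inducible families. Iigp1, an immunity-related GTPase, was at 138 against 8.58 CPM in the antibiotic library (16-fold, 6.33 to 33.9) and at 160 against 18.2 CPM in the vehicle library (8.79-fold, 6.47 to 11.7). Pydc3, Pydc4 and Pyhin1, of the pyrin and HIN domain family, were 4.06-, 6.71- and 3.72-fold higher in the antibiotic library and 3.98-, 4.46- and 3.15-fold higher in the vehicle library. Amica1, BC094916, Gm4955, Phf11c, Ms4a6d and Ehd4 also ranked here, 5.23- to 8.97-fold higher in the antibiotic and 3.33- to 5.45-fold higher in the vehicle library. Among the lowest genes were those of other cells: Jchain and Ebf1, B lineage genes, had 1 and 0 UMIs in antibiotic and 2 and 1 UMIs in vehicle ISG-high cells, and the rule leaves cells with Cd79a in the reference but not among ISG-high cells. Against reference cells within the other parts of the rule both turned higher in the antibiotic library, with log2 ratios of 1.27 for Jchain and 1.76 for Ebf1. Hist1h2ap and Hist1h1e, histone genes of dividing cells, had no UMI in antibiotic ISG-high cells and ratios of 0.0945 and 0.213 in the vehicle library, while Apoe, Setd5, Foxj3 and Fcmr had no UMI in antibiotic and 0 to 5 UMIs in vehicle ISG-high cells. In antibiotic ISG-high cells 3 UMIs would be 58.9 CPM, so most of these zeros say little. Of the genes at 0 UMIs there, only Apoe had an interval below 1 (0 to 0.976), and those of Foxj3 and Fcmr reached 4.36 and 4.03. In the vehicle library the interval of Hist1h1e reached 1.20. The cell cycle marker list was at 471 against 480 CPM in the antibiotic and 937 against 894 CPM in the vehicle library. The antibiotic value rests on 24 UMIs, with 7 of the 9 genes at 0 UMIs, so it does not show equal cycling.

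Markers of other cells were low in most but not all ISG-high cells. None of the 13 antibiotic ISG-high cells held 10 or more UMIs of the plasmacytoid dendritic cell (pDC), B, NK, myeloid or neutrophil marker list, against 172 of 4203 reference cells (4.09%). In the vehicle library 4 of 72 ISG-high cells did, against 415 of 3515 reference cells (11.8%). Of these, 2 held 42 and 69 pDC marker UMIs with 130 and 123 UMIs of Cd74, beside 9 and 3 UMIs of Trac, 1 held 84 NK marker UMIs of which 71 were Gzma, and 1 held 10 B cell marker UMIs. Scrublet scored 3 of these 4 as doublets, 4 of the 72 vehicle and 0 of the 13 antibiotic ISG-high cells in all. Without the 4 cells, which were singled out after their values were seen, the ratios of ISG-high over reference cells in the vehicle library moved to 0.61 for Pld4 (5.53 with them, 0.5 UMIs added), 0.27 for Rnase6 (3.88 with them) and 0.58 for Irf8 (2.17 with them). These 3 genes, which pDC express, were thus high in the vehicle ISG-high set through these cells. The 415 reference cells with such markers were kept in this comparison. The ratios below 1 therefore do not show that the other ISG-high cells were lower in these genes than like reference cells. The neutrophil list was at 0 UMIs in antibiotic ISG-high cells and at 26.1 CPM in vehicle ISG-high cells.

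ISG-high cells were a smaller share of Trac+ Cxcr6+ cells in the antibiotic library, 13 of 4216 (0.308%, 0.164 to 0.527), than in the vehicle library, 72 of 3587 (2.01%, 1.57 to 2.52). The ratio of shares was 0.154 (0.0780 to 0.280). Among cells that met the other parts of the rule the shares were 0.418% of 3108 and 3.04% of 2371 (ratio 0.138, 0.0700 to 0.251), and of all called cells they were 0.184% and 0.80% (ratio 0.231, 0.117 to 0.420). Rule UMIs were also counted after every cell was thinned to 1500 UMIs. Of the cells that met the other parts of the rule at full depth, 11 antibiotic and 58 vehicle cells then had 4 or more (0.354% and 2.45%, ratio 0.145, 0.0685 to 0.278). These need not all be ISG-high cells. The ratio of shares was thus similar with rule UMIs counted at equal depth, while the other parts of the rule were still read at full depth. The rule left out 4 further antibiotic and 41 further vehicle cells with 8 or more rule UMIs, 23 of the vehicle cells for a Cd79a UMI, and with these counted the shares were 0.403% and 3.15% (ratio 0.128, 0.0720 to 0.214). Free RNA of the rule genes was also lower in the antibiotic library, at 57.8 against 150.4 CPM, and its part in the shares was not tested.

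Other lymphocytes gave the setting for these shares. Trac+ Cxcr6+ cells with Trav11 had 8 or more rule UMIs in 2 of 545 antibiotic cells (0.367%) and 8 of 317 vehicle cells (2.52%), a ratio of 0.145 (0.0150 to 0.729). Those with 2 or more UMIs of the activation genes did so in 3 of 209 (1.44%) and 14 of 265 (5.28%), a ratio of 0.272 (0.0501 to 0.973). T cells without Cxcr6 did so in 5 of 732 (0.683%) and 15 of 851 (1.76%), a ratio of 0.388 (0.110 to 1.12). All 3 sets were lower in the antibiotic library, the last with an interval that includes 1. After thinning to 1500 UMIs the ratios were 0.291 (0.0263 to 2.03), 0.338 (0.0817 to 1.06) and 0.249 (0.0459 to 0.893) in the same order of sets, so which intervals include 1 changed with depth. NK cells (Ncr1 and no Trac) did so in 0 of 196, which allows a share of up to 1.86%, and 8 of 502 (1.59%). B cells were the exception in direction, with 5 of 1298 (0.385%, 0.125 to 0.897) and 9 of 3009 (0.299%, 0.137 to 0.567), a ratio of 1.29 (0.339 to 4.28) whose interval includes both higher and lower shares.

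**Figure D4:**
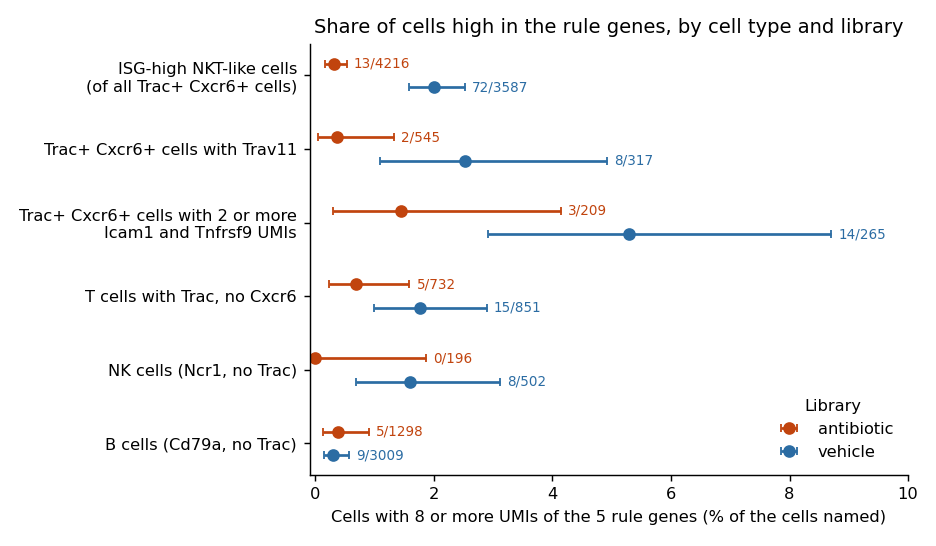
Share of cells with 8 or more rule UMIs (percent, Clopper-Pearson 95% bars, cells over total printed) in 6 cell sets, antibiotic above vehicle in each. ISG-high cells were 0.308% against 2.01% of Trac+ Cxcr6+ cells, and only in B cells did the antibiotic point, 0.385%, lie above the vehicle point, 0.299%.

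Within ISG-high cells, the interferon genes outside the rule differed little between the libraries as a group. For antibiotic over vehicle the median log2 ratio was -0.11 over the 77 genes, beside 0.15 over all genes, with 33 genes higher and 44 lower. At least 2-fold higher were 4 and lower 9, where 19.8% and 12.8% of all genes were, and 2 intervals lay above 1 and 3 below, where 2.31% and 1.4% of all genes did. In the reference cells the median was -0.46, beside -0.02 over all genes, with 7 genes higher and 70 lower, and 65 intervals below 1 and 3 above, where 30.4% and 20.8% of all genes did. Summed, these genes were at 9003 and 11033 CPM in antibiotic and vehicle reference cells. In free RNA they were at 9608 and 11005 CPM, and its part in the reference difference was not tested. The rule sets a minimum of interferon UMIs in the ISG-high cells of both libraries and none in the reference cells, and the difference between the ISG-high and the reference medians was not tested. In reference cells 7 of the 77 interferon genes were at least 2-fold lower and 0 at least 2-fold higher. Of all 6801 genes, 113 were lower and 29 higher by this limit. Rtp4, one of the 7, had an antibiotic over vehicle ratio of 0.994 (0.632 to 1.51) in ISG-high cells and 0.378 (0.345 to 0.413) in reference cells.

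The 2 interferon genes with an interval above 1 in ISG-high cells and the 3 with one below are named here. Of all genes, 2.31% and 1.4% had such intervals, so these are values of single genes and not a result about the lists. Ddx58 was higher in the antibiotic library, at 275 against 128 CPM (2.15-fold, 1.09 to 4.0). Ifit1bl1, a further IFIT gene, was lower at 118 against 316 CPM (ratio 0.373, 0.134 to 0.838), Isg20, an RNA exonuclease, was lower at 78.6 against 264 CPM (0.298, 0.0794 to 0.788), and Trim30a, a ubiquitin ligase, was lower at 98.2 against 342 CPM (0.287, 0.0914 to 0.688). Cxcl10 had an antibiotic over vehicle ratio of 11.1 (5.89 to 21.7) with all cells, and without the cell with the most rule UMIs in each library the ratio was 1.02 with 0.5 UMIs added. MHC class I genes had medians of -0.19 in ISG-high cells and -0.31 in reference cells, and B2m was lower in both, with ratios of 0.728 (0.644 to 0.821) and 0.698 (0.692 to 0.705).

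**Figure D5:**
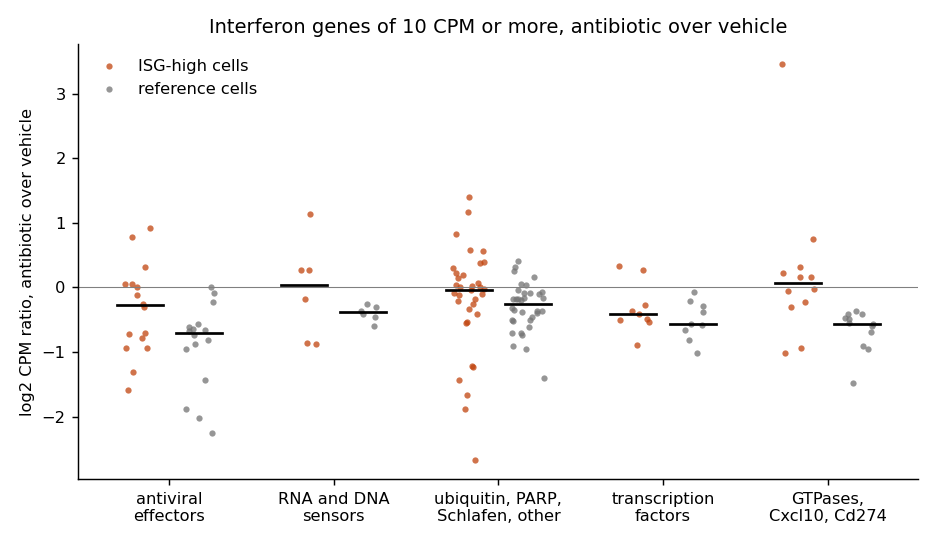
Log2 ratio of antibiotic over vehicle CPM for each interferon gene outside the rule, by list, ISG-high cells left of reference cells, with the median as a line. ISG-high cells scatter around a median of -0.11 over the 77 genes and reference cells lie mostly below 0, with a median of -0.46.

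The genes that differed most between the libraries in ISG-high cells are given beside their ratio in the reference cells. Il2ra, the high-affinity interleukin 2 receptor chain, had 10 UMIs in 4 of 13 antibiotic cells and 6 UMIs in 5 of 72 vehicle cells (196 against 17.4 CPM, 11.3-fold, 3.72 to 37.8), beside a ratio of 1.23 (1.08 to 1.40) in reference cells. Nfkbia, the inhibitor of NF-κB and one of its targets, was at 609 against 186 CPM (3.28-fold, 2.06 to 5.11), beside 1.07 (1.02 to 1.12) in reference cells. These rest on 4 and 7 antibiotic cells. The others that ranked higher, Rarg, Cep97, Galnt10, Klf7, Tbc1d17, Ktn1 and Rwdd4a, had 3 to 9 UMIs in antibiotic and 0 to 8 UMIs in vehicle ISG-high cells, too few for a size. Lgals1 had a ratio of 0.271 (0.134 to 0.492), and 0.262 in reference cells, but with cells of 6 or more rule UMIs its log2 ratio turned from negative to 0.28. Lower in antibiotic ISG-high cells were S100a6 (ratio 0.262, 0.104 to 0.551, and 0.448 in reference cells), the immediate early gene Jun (0.165, 0.0197 to 0.616, and 0.454) and the heat shock genes Dnaja1 (0.322, 0.127 to 0.681, and 0.539) and Hspa1a. Hspa1a had 0 UMIs in the 13 antibiotic cells, where 3 UMIs would be 58.9 CPM, and 203 CPM in the vehicle cells, and its ratio in reference cells was 0.0498 (0.0421 to 0.0586). Heat shock and immediate early genes move with handling as well as with biology, and their part in the other differences between the libraries was not tested. Malat1, a nuclear RNA, had ratios of 0.634 (0.592 to 0.679) in ISG-high and 0.684 (0.681 to 0.687) in reference cells. Tyrobp, an adaptor of NK and myeloid receptors, had 0 antibiotic and 86 vehicle UMIs, and with 0.5 UMIs added its ratio was 0.04 with all cells and 0.19 without the 4 vehicle cells with markers of other cells, beside 0.291 in reference cells. Gzma, a granzyme, had 0 antibiotic and 83 vehicle UMIs, 71 of them in the 1 vehicle cell with NK markers. The invariant chain Cd74 had a ratio of 0.11 with all cells and 0.41 without those 4 cells, beside 0.379 in reference cells, and H2-Ab1, a class II chain, had 0.25 and 0.94 (0.5 UMIs added), beside 0.371 in reference cells.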

How the data were processed

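Libraries of CD45+ liver leukocytes (1 antibiotic, 1 vehicle) were prepared with version 2 of the Chromium 3′ chemistry. The deposited UMI counts are raw and unfiltered; per the submitters' processing notes the authors made them with bcl2fastq and Cell Ranger on mm10 (versions and parameters not given in the sources used here). How reads that fit several genes were treated is not stated there. Cells, ISG-high cells and reference cells were called as stated in the report. The cell rule, the gene lists and the comparisons were chosen with earlier results of these data known. UMIs were summed over cells and scaled to CPM; log2 ratios had 0.5 UMIs added, and genes under 10 CPM over all Trac+ Cxcr6+ cells were left out. Symbols on 2 rows of the files were left out. The values of 1 gene of the lists are not reported here. Gene lists are named with their counts; outside them the 12 higher and 8 lower genes of ISG-high over reference cells, and the 10 higher and 10 lower of antibiotic over vehicle, were ranked by the interval bound nearest 1 (without ribosomal, mitochondrial, hemoglobin, immunoglobulin, receptor segment and other-cell marker genes), and Ccl5, Ifng, Il10, Bcl2, Il7r and Cd48 were added because the study follows them. Doublets were scored by Scrublet (expected 6%), 2.0% of antibiotic and 4.44% of vehicle cells, and kept. For thinning, UMIs were drawn without replacement. UMIs and cells of 1 library are not independent samples of mice, so intervals cover counting error only. Of the gene identifiers, 98.8% were found in GENCODE vM21. Alternatives were the threshold, the reference, depth, doublets, low-value limit, added UMIs and left-out cells. The ratio and interval code was tested on simulated data. Scrublet was run in scanpy 1.11.5 with anndata 0.12.19, intervals in scipy 1.17.1, sums in pandas 2.3.3 and numpy 2.4.6, and figures in matplotlib 3.10.9 (Python 3.11.15).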

Additional observations from a re-analysis of the deposited data

Results flagged for a closer look

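B cells (Cd79a and no Trac) differed in direction from the ISG-high cells. Their share with 8 or more rule UMIs had an antibiotic over vehicle ratio of 1.29 (0.339 to 4.28), from 5 of 1298 and 9 of 3009 cells, while the ratio was 0.154 (0.0780 to 0.280) for ISG-high cells and below 1 in Trac+ Cxcr6+ cells with Trav11, in those with activation genes and in T cells without Cxcr6. After thinning to 1500 UMIs, with 4 or more rule UMIs, the B cell ratio was 1.74 (0.497 to 5.71). The difference between B cells and ISG-high cells was not tested.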

How the results depend on the processing

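The lower share of ISG-high cells in the antibiotic library kept its direction under all alternatives run, with ratios of 0.0989 to 0.172. The antibiotic share was 0.119% at 12 or more rule UMIs; the vehicle share was 2.73% at 6 or more, 1.2% at 12 or more and 3.04% of the cells within the other parts of the rule. The interferon median (log2) in the antibiotic library was 1.48 at 6 or more rule UMIs, 2.48 at 12 or more, 2.29 without the CPM limit and 2.33 with 2 UMIs added, and in the vehicle library it lay between 1.45 and 1.78. The median of antibiotic over vehicle was -0.45 at 6 or more, 0.30 at 12 or more, -0.29 after thinning and 0.10 with 2 UMIs added, so its sign depends on the setting. In the main setting it was -0.11 in ISG-high cells, beside -0.46 in reference cells. Counts of 2-fold genes varied with the number of cells and the limit. In the antibiotic library 769 genes were higher at 6 or more rule UMIs, 2544 at 12 or more, 387 above 30 CPM and 180 when the interval had to exclude 1 as well, and 368, 398 and 36 were lower at 12 or more, above 30 CPM and with the interval. In the vehicle library 344 (12 or more) and 62 (30 CPM) were higher and 542, 59 and 136 (interval) lower. For antibiotic over vehicle 2578, 384 and 111 were higher and 504, 448 and 60 lower, in the same order. Against reference cells within the other parts of the rule, Jchain (log2 1.27) and Ebf1 (1.76) turned higher in the antibiotic library, and Ebf1 also did at 12 or more (0.057) and without doublets (0.20). Irf8 and Rnase6 in the vehicle library turned lower without doublets (-0.27 and -0.82), and Irf8, Pld4 and Rnase6 did without ISG-high cells with markers of other cells (-0.78, -0.72 and -1.91). In the latter setting reference cells with such markers were kept, so these negative values compare unlike sets. The log2 ratio of Lgals1, antibiotic over vehicle in ISG-high cells, turned positive (0.28) at 6 or more. No paired analysis was possible because each condition had 1 library, and no result comes from a test. The 13 antibiotic cells limit every value for single genes: an interferon gene there is often 3 to 30 UMIs.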
